A study of Mus musculus with 2 samples.

Results

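Macrophages remove dying cells, a process called efferocytosis, and take up modified lipoproteins and microbes. Genes of both functions were followed here in F4/80+ cells of the mouse peritoneal cavity. The 10 genes were chosen by symbol among 55450 features of the deposited tables, and all 10 were found: Timd4, Marco, Msr1, Scarb1, Cd36, Mertk, Axl, Gas6, Mfge8 and Stab1. The series holds 2 single-cell RNA libraries, 1 of Ankrd22-/- mice made with CRISPR/Cas9 (KO) and 1 of Ankrd22+/+ mice (WT). F4/80, the product of Adgre1, is a surface antigen of macrophages, and Ankrd22 encodes an ankyrin repeat protein. The strain, age, sex and number of the mice behind each library and the deleted part of Ankrd22 were not given in the sources used here. With 1 library per genotype there was no test, and each difference below is between these libraries and has no replicate check.

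A dying cell exposes phosphatidylserine on its surface. Macrophages bind this lipid directly, through receptors such as Tim-4 and stabilin-1, or through bridging proteins, Mfge8 for integrins and Gas6 for the receptor tyrosine kinases Mertk and Axl. Scavenger receptors take up modified lipoproteins, lipids, bacteria and particles, and some of them also bind apoptotic cells. In the peritoneal cavity Tim-4 marks long-lived resident macrophages, which are large, depend on the transcription factor GATA6 and carry little MHC class II. Small macrophages of monocyte origin carry much class II.

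In KO, 6706 barcodes held 110956482 UMIs (unique molecular identifiers, each standing for 1 captured transcript), and in WT, 6315 barcodes held 96869041 UMIs. The libraries shared 15 barcode sequences. After filters, 5987 KO and 5894 WT barcodes were macrophages, with at least 4 of 8 macrophage markers, at medians of 16070 UMIs in KO and 14409 UMIs in WT cells. All 8 markers were present in each library, and they summed to 30028 UMIs per 1000000 UMIs (CPM) in KO and 64995 CPM in WT macrophages. The lower KO sum does not hold for each marker. Cd68 was at 353 CPM in KO and 294 CPM in WT macrophages. Adgre1 was at 617 CPM in KO and 684 CPM in WT macrophages outside the cell cycle. The 8 markers of large peritoneal macrophages summed to 15241 CPM in KO and 15277 CPM in WT, and the 7 of small ones to 517 and 1449 CPM, and no gene of these lists was at 0. These sums do not stand for each gene. In macrophages outside the cell cycle, Retnla, a marker of small ones, was at 465 CPM in KO and 1338 CPM in WT. Ccr2, of the same list, was at 19.5 CPM in KO and 7.12 CPM in WT. Prg4, a marker of large ones, was at 10385 CPM in KO and 7046 CPM in WT. The Folr2 and Lyve1 sum was 12.4 CPM in KO and 51.1 CPM in WT, and the part of these lists in the lower KO levels of Marco, Stab1 and Gas6 was not tested. Ankrd22 had 0 UMIs in both libraries, so it does not check the genotype labels. In macrophages, 5 mesothelial markers summed to 0.0390 CPM in KO and 0.0112 CPM in WT, with 3 and 4 of them at 0. The 5 fibroblast markers summed to 0.0293 CPM in KO and 0.0112 CPM in WT, with 4 at 0 in each. The 4 endothelial markers summed to 2.16 CPM in KO and 2.64 CPM in WT, with 0 and 1 at 0. Other lists were higher. The 4 neutrophil markers summed to 26.8 CPM in KO and 16.9 CPM in WT, with 1 and 3 at 0. The 4 dendritic cell markers summed to 7.81 CPM in KO and 7.95 CPM in WT, with 1 at 0 in each. The 8 B cell markers summed to 4.82 CPM in KO and 2.98 CPM in WT. These sums are over all macrophages and are not given by class II level. The median mitochondrial share was 1.47% in KO and 0.685% in WT macrophages, and its part in the results was not tested.

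Over all macrophages, Marco, Stab1, Mfge8 and the sparse Gas6 were lower and Scarb1 was higher in KO, while Msr1, Cd36, Mertk and Axl were close. UMIs were summed over the macrophages of a library and scaled to CPM, and log2 ratios of KO over WT were taken after adding 1 CPM to each side. Intervals are exact 95% intervals that cover counting error only. Past 1.5-fold, 1 of the 10 genes was higher and 4 were lower in KO. Of the 5115 genes that reached 20 CPM in either library, 11.1% were higher and 3.95% lower by that measure. That floor was reached by 7 of the 10 genes, of which 1 was higher and 2 lower, and Scarb1 reached it through KO alone. The median log2 ratio was -0.20 over the 10 genes and 0.21 over all genes at the floor. Scaling by TMM factors or by the median of ratios shifted ratios by -0.27 and -0.28, which took Timd4 past 1.5-fold on the lower side and put Msr1, Mertk and Axl below 0.

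**Figure D1:**
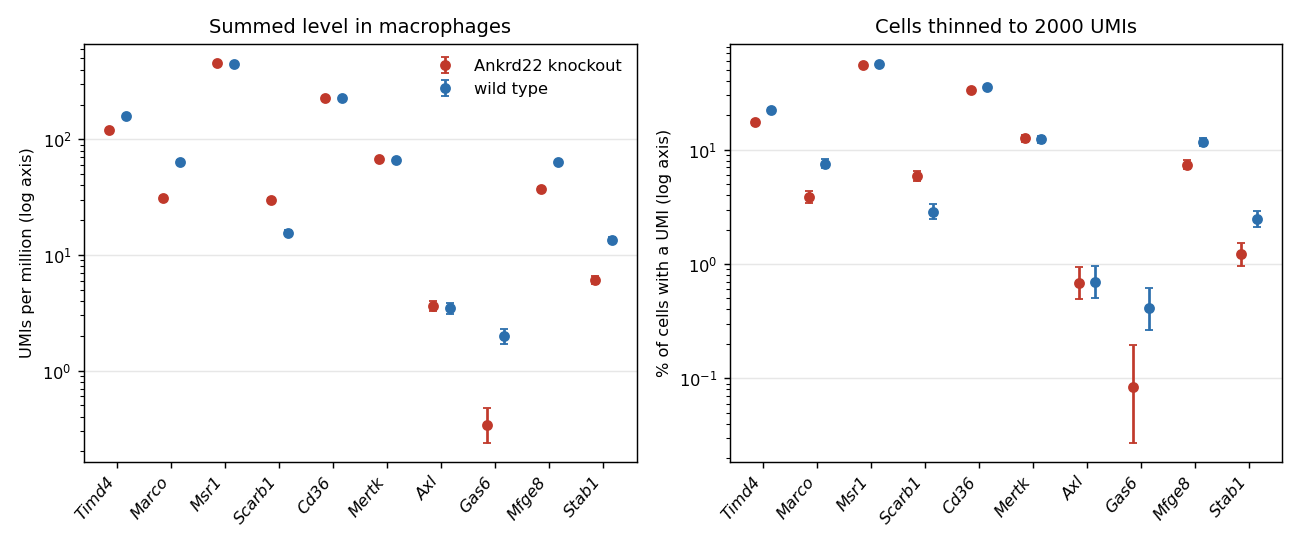
Left, UMIs per 1000000 (CPM) of each gene summed over macrophages, on a log axis, in the Ankrd22 knockout (red) and the wild type library (blue), with exact Poisson 95% intervals. Right, the percentage of macrophages with a UMI of the gene after each cell was thinned to 2000 UMIs, on a log axis, with exact binomial 95% intervals. Marco, Mfge8 and Stab1 are lower and Scarb1 is higher in KO in both panels, and Msr1, Cd36 and Mertk nearly coincide.

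Timd4 (ENSMUSG00000055546, chromosome 11, 46810800 to 46844332, plus strand, GRCm38 here and below) encodes Tim-4, the phosphatidylserine receptor of resident macrophages. It stood at 121 CPM (119 to 124) in KO and 158 CPM (155 to 161) in WT macrophages, a log2 ratio of -0.38 (-0.41 to -0.34), and -0.65 under TMM scaling. It was seen in 17.4% of KO and 22.3% of WT macrophages after thinning (41.6% of KO and 48.2% of WT unthinned).

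Within each library Timd4 differed far more between levels of class II than it did between genotypes. Macrophages outside the cell cycle were split by the UMIs of H2-Aa, H2-Ab1, H2-Eb1 and Cd74 per 10000 UMIs, with low under 20, middle from 20 and high from 100. These are ranges of a continuous measure and not cell types: 97 KO and 206 WT cells lay within 25% of the lower cut, and 30 KO and 39 WT cells within 25% of the upper one. The low range held 5119 KO and 5163 WT cells, the middle 149 and 301, and the high 58 and 47. From low to high, Timd4 stood at 135, 18.8 and 13.7 CPM in KO cells, and 170, 78.3 and 6.06 CPM in WT cells, where the high range rested on 12 KO and 4 WT UMIs. High over low, its log2 ratio was -3.21 (-4.07 to -2.44) in KO and -4.60 (-6.01 to -3.37) in WT cells. These sizes depend on the cuts: with cuts at 10 and 50 the log2 ratio was -3.39 in KO and -1.91 in WT cells, so the order of the libraries turned. With cuts at 50 and 200 it was -2.25 in KO cells, and the 8 WT cells of the high range held 0 Timd4 UMIs. Middle over low, at cuts of 20 and 100, it was -2.78 (-3.21 to -2.38) in KO and -1.11 (-1.27 to -0.96) in WT cells, so the KO middle range stood further below its low range. Ccr2, a chemokine receptor gene of monocyte-derived cells, was at 131 CPM in the KO and 60.5 CPM in the WT middle range, and its part in this was not tested.

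Mfge8 (ENSMUSG00000030605, chromosome 7, 79133768 to 79149060, minus strand) encodes a secreted bridge between phosphatidylserine and integrins. It stood at 37.1 CPM (36.0 to 38.3) in KO and 63.4 CPM (61.8 to 65.1) in WT macrophages, a log2 ratio of -0.76 (-0.82 to -0.70). Transcripts of Mfge8 were seen in 7.37% of KO and 11.7% of WT macrophages after thinning (44.2% of KO and 54.6% of WT unthinned). Like Timd4 it was lower with more class II, at 39.2, 19.2 and 11.4 CPM in KO cells, and 66.5, 40.8 and 13.6 CPM in WT cells from low to high. The high range held 10 KO and 9 WT UMIs of Mfge8, and there the genotypes lay within counting error (log2 ratio -0.23, -1.56 to 1.12). High over low, its log2 ratio was -1.69 in KO and -2.21 in WT cells, and -1.99 in KO and -1.58 in WT cells with cuts at 10 and 50. With cuts at 50 and 200 it was -2.36 in KO cells, and the WT high range held 0 Mfge8 UMIs.

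Marco (ENSMUSG00000026390, chromosome 1, 120474538 to 120505024, minus strand) encodes a collagen-like scavenger receptor for bacteria and particles. It stood at 31.3 CPM (30.2 to 32.4) in KO and 64.2 CPM (62.5 to 65.9) in WT macrophages, a log2 ratio of -1.01 (-1.07 to -0.95). A minority of cells carried it: the 10% of macrophages with the most Marco held 92.9% of its UMIs in KO and 84.1% in WT, and single cells reached 57 UMIs in KO and 100 in WT. It was seen in 3.86% of KO and 7.54% of WT macrophages after thinning (13.8% of KO and 22.9% of WT unthinned). Cells with a UMI held 3.88 Marco UMIs on average in KO and 4.23 in WT, not adjusted for depth. From low to high class II, Marco stood at 34.6, 9.79 and 3.43 CPM in KO cells, and 68.6, 38.9 and 3.03 CPM in WT cells, with 3 KO and 2 WT UMIs in the high range. High over low, the log2 ratio was -3.01 in KO and -4.11 in WT cells, and -2.93 in KO and -2.73 in WT cells with cuts at 10 and 50.

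Timd4, Mfge8 and Marco were lower in the high than in the low class II range in both libraries, and Axl, described below, was higher. Their promoters are shown for these opposite patterns, as given by RefSeq on GRCm38.p6, which had entries matching 8 of the 10 genes. Each run is the 250 bases before the annotated start, 5′ to 3′ on the gene's strand, at chr11:46810549-46810798 (plus strand), chr7:79149061-79149310 (minus), chr1:120505025-120505274 (minus) and chr7:25788734-25788983 (minus). Capitals mark matches, on either strand, to cores of motifs of macrophage factors: GAGGAA of PU.1, TTGCNNAA of C/EBP, TGCTGAC of MAF, NGATAA of GATA factors and TGANTCA of AP-1.
Timd4: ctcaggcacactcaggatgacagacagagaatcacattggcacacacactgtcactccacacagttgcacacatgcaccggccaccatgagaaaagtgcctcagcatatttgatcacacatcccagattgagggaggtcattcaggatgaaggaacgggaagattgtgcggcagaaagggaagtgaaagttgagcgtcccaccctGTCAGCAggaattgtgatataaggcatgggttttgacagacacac
Mfge8: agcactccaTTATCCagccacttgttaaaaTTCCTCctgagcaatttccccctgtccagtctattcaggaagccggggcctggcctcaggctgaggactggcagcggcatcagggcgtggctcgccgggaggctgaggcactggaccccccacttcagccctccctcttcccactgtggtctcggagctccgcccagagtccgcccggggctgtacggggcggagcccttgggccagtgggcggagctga
Marco: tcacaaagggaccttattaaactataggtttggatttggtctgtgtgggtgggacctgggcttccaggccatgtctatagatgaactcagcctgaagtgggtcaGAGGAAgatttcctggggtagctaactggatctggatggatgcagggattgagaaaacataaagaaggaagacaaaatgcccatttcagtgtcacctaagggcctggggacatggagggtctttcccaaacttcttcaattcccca
Axl: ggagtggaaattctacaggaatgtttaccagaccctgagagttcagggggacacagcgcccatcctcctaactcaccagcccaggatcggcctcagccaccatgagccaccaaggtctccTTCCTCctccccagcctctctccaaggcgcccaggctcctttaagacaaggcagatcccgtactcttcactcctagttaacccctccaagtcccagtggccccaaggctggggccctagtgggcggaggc
Timd4 held 1 match, to MAF, Marco and Axl each held 1, to PU.1, and Mfge8 held 2, to PU.1 and GATA. Of 32544 promoters of the same length, 3.79% held the MAF core, 23.4% the PU.1 core, 22.4% the GATA core, 9.58% the C/EBP core and 6.73% the AP-1 core. A match describes letters and is no site of binding. These cores were searched after a first set of 6 motifs had matched 0 of the 8 promoters.

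Mertk (ENSMUSG00000014361, chromosome 2, 128698956 to 128802894, plus strand), the main efferocytic kinase of resident macrophages, stood at 67.1 CPM (65.5 to 68.7) in KO and 66.3 CPM (64.6 to 68.0) in WT macrophages. Its log2 ratio was 0.02 (-0.03 to 0.07), and -0.26 under TMM. Mertk was seen in 12.6% of KO and 12.4% of WT macrophages after thinning (60.5% of KO and 55.7% of WT unthinned). From low to high class II it stood at 66.7, 91.0 and 85.8 CPM in KO cells, and 67.2, 76.3 and 83.3 CPM in WT cells, a narrow span beside those of Timd4 or Axl.

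Gas6 (ENSMUSG00000031451, chromosome 8, 13465374 to 13494490, minus strand), a ligand of Mertk and Axl, was sparse, with 35 UMIs in KO and 177 UMIs in WT macrophages. It stood at 0.341 CPM (0.238 to 0.475) in KO and 1.99 CPM (1.71 to 2.30) in WT macrophages, a log2 ratio of -1.16 (-1.32 to -0.97). The added 1 CPM exceeds the KO level and shrinks this ratio, which was -2.24 with 0.1 CPM added.

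Axl (ENSMUSG00000002602, chromosome 7, 25757273 to 25788705, minus strand), the second kinase, stood at 3.64 CPM (3.28 to 4.03) in KO and 3.45 CPM (3.07 to 3.86) in WT macrophages. Its log2 ratio was 0.06 (-0.11 to 0.23), and -0.16 under TMM and -0.16 under the median of ratios. Behind this even total, Axl was far higher with more class II. From low to high it stood at 1.72, 28.1 and 101 CPM in KO cells, and 1.96, 14.2 and 27.3 CPM in WT cells, where the high range rested on 88 KO and 18 WT UMIs. High over low, the log2 ratio was 5.23 (4.88 to 5.56) in KO and 3.25 (2.52 to 3.91) in WT cells. The middle and high ranges together held 42.1% of the Axl UMIs in 3.46% of KO macrophages, and 26.1% in 5.90% of WT macrophages. Within the high range the log2 ratio of KO over WT was 1.85, 1.12 to 2.63.

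The high class II cells of the libraries differed in other genes as well. Gata6 was at 27.5 CPM in KO and 57.6 CPM in WT high range cells, Ccr2 at 1302 and 247 CPM, and Retnla, a gene of small peritoneal macrophages, at 21323 and 15480 CPM. Their part in the differences of Axl, Cd36 and Msr1 in this range was not tested.

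**Figure D2:**
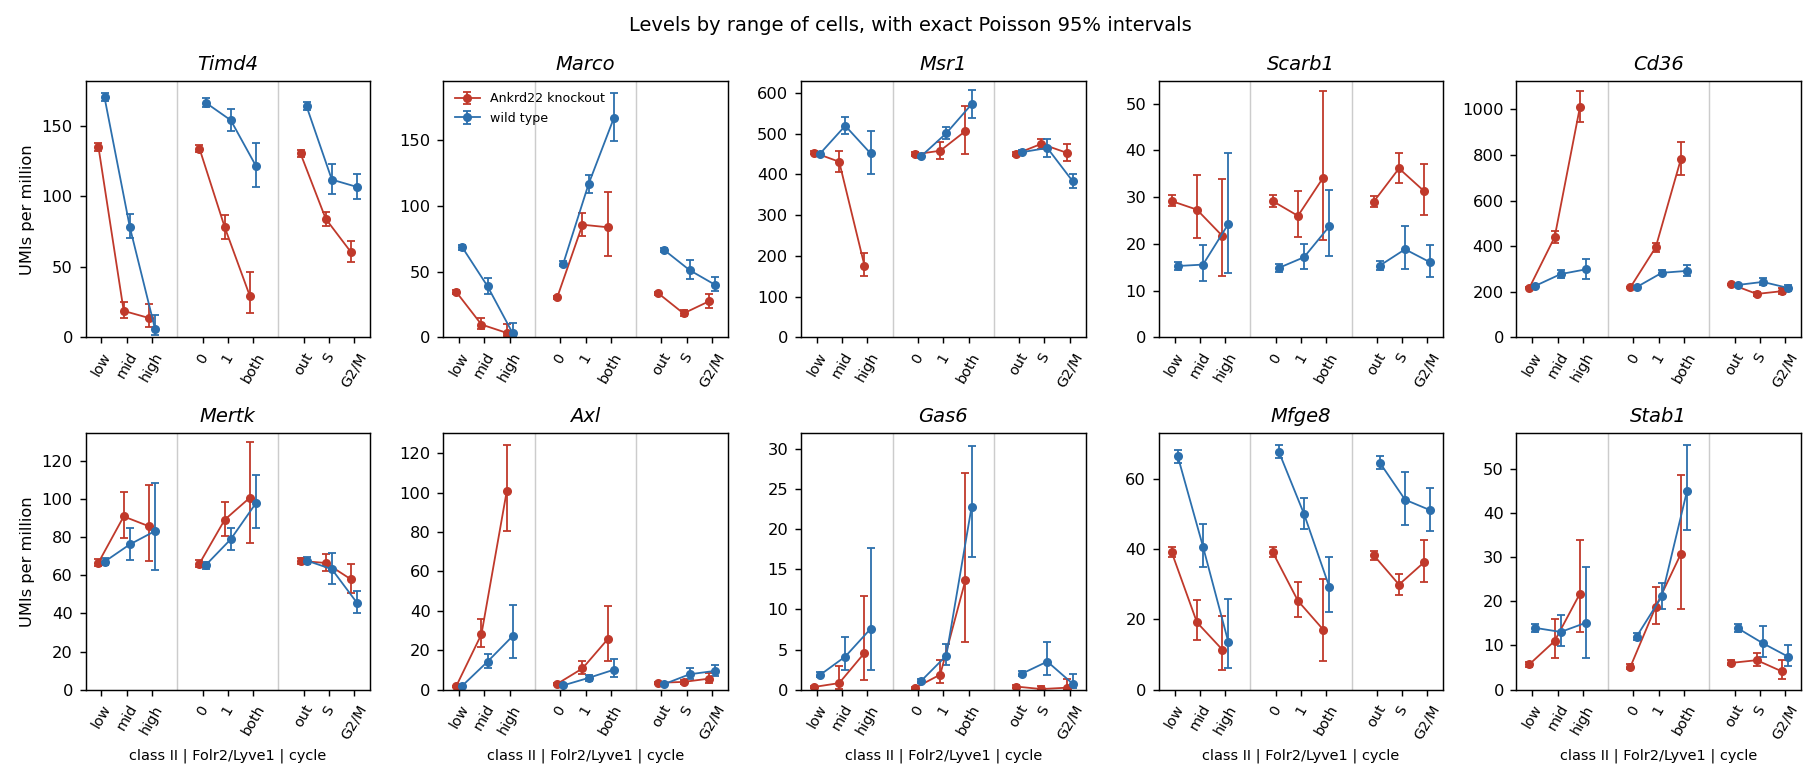
UMIs per 1000000 (CPM, linear axes from 0) of the 10 genes, 1 panel each, in the Ankrd22 knockout (red) and the wild type library (blue). From left to right the points stand for low, middle and high class II, for 0, 1 or both of Folr2 and Lyve1 seen, and for cells outside the cycle, in S phase and in G2 or mitosis, with exact Poisson 95% intervals. Timd4 and Mfge8 are lower and Axl is higher with more class II in both libraries, and Cd36 reaches 1010 CPM in KO cells of the high range.

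Msr1 (ENSMUSG00000025044, chromosome 8, 39581685 to 39642673, minus strand), the class A scavenger receptor for modified lipoproteins, stood at 453 CPM (449 to 457) in KO and 450 CPM (446 to 455) in WT macrophages. Its log2 ratio was 0.01 (-0.01 to 0.03), and -0.27 under TMM. It was seen in 54.9% of KO and 56.2% of WT macrophages after thinning (96.1% of KO and 96.2% of WT unthinned). Cd36 (ENSMUSG00000002944, chromosome 5, 17781690 to 17888801, minus strand), a receptor for long-chain fatty acids and oxidised lipoproteins, stood at 226 CPM (223 to 229) in KO and 230 CPM (226 to 233) in WT macrophages. Its log2 ratio was -0.02 (-0.05 to 0.00), and -0.30 under TMM. Cd36 was seen in 33.0% of KO and 35.2% of WT macrophages after thinning (87.9% of KO and 86.4% of WT unthinned), so that the order of the genotypes turned with thinning.

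These near-equal totals split with class II. From low to high, Cd36 stood at 218, 440 and 1010 CPM in KO cells, and 226, 278 and 298 CPM in WT cells. High over low, its log2 ratio was 2.21 (2.11 to 2.31) in KO and 0.40 (0.19 to 0.60) in WT cells. In the high range it was seen in 70.2% (56.6 to 81.6%) of KO and 39.1% (25.1 to 54.6%) of WT cells after thinning, and in 94.8% of KO and 85.1% of WT cells unthinned. Msr1 was low in the KO high range and not in the WT one, at 453, 431 and 176 CPM in KO cells, and 451, 519 and 451 CPM in WT cells from low to high. Unthinned, Msr1 was seen in 56.9% of KO and 93.6% of WT cells of the high range. Its log2 ratio, high over low, was -1.36 in KO cells, -0.65 with cuts at 10 and 50 and -2.12 with cuts at 50 and 200, while the WT values were 0.00, 0.30 and -0.20. Whether these slopes differ between genotypes was not tested. High over low, 4 of the 10 genes were higher and 4 lower past 1.5-fold in KO cells, where 26.6% and 10.4% of all genes at the floor were. In WT cells 3 were higher and 3 lower, where 14.4% and 5.97% of all genes were. The floor was reached by 9 of the 10 genes in KO, of which 3 were higher and 4 lower, and by 8 in WT, of which 2 were higher and 3 lower. Axl and Stab1 in KO, and Axl and Scarb1 in WT, reached the floor only through the high range.

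Scarb1 (ENSMUSG00000037936, chromosome 5, 125277087 to 125341094, minus strand) encodes SR-BI, a receptor for high-density lipoprotein that moves cholesterol and also binds apoptotic cells. It stood at 30.1 CPM (29.0 to 31.1) in KO and 15.6 CPM (14.7 to 16.4) in WT macrophages, a log2 ratio of 0.91, and 0.64 under TMM and 0.64 under the median of ratios. It was seen in 5.88% of KO and 2.88% of WT macrophages after thinning. From low to high class II it stood at 29.2, 27.3 and 21.7 CPM in KO cells, and 15.3, 15.6 and 24.2 CPM in WT cells, and in the high range, with 19 KO and 16 WT UMIs, the genotypes lay within counting error. Outside the cycle, in S phase and in G2 and mitosis it stood at 29.0, 36.2 and 31.3 CPM in KO cells, and 15.4, 18.9 and 16.0 CPM in WT cells, so KO was the higher in each of these.

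Stab1 (ENSMUSG00000042286, chromosome 14, 31139013 to 31168641, minus strand) encodes stabilin-1, a large receptor that binds phosphatidylserine and modified lipoproteins. It stood at 6.06 CPM (5.59 to 6.55) in KO and 13.4 CPM (12.6 to 14.2) in WT macrophages, a log2 ratio of -1.03 (-1.15 to -0.90). At least 1 Stab1 UMI was seen in 1.23% of KO and 2.48% of WT macrophages after thinning (8.33% of KO and 14.6% of WT unthinned).

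Folr2, a folate receptor gene, and Lyve1, a hyaluronan receptor gene, mark a state of tissue macrophages. Cells in which both were seen held more Stab1, Gas6, Marco and Axl in each library. Of the macrophages outside the cycle, both were seen in 28 KO and 111 WT cells, 1 of them in 222 and 611, and neither in 5076 and 4789. Seeing a transcript depends on depth: the median was 19191 UMIs in KO cells with both and 15118.5 in those with neither, and 17096 and 13849 UMIs in WT cells. Stab1 was at 30.8 CPM in KO and 45.0 CPM in WT cells with both. Its log2 ratio to cells with neither was 2.36 in KO and 1.82 in WT, or 1.70 in KO and 1.92 in WT within the low class II range. KO over WT, Stab1 was at -1.07 (-1.22 to -0.92) in cells with neither. It was at -0.16 (-0.53 to 0.20) in cells with 1 and -0.53 (-1.32 to 0.19) in cells with both, within counting error. Gas6 was at 13.7 and 0.212 CPM in KO cells, from 8 and 17 UMIs, and at 22.7 and 1.07 CPM in WT cells, from 45 and 73 UMIs. Unthinned, it was seen in 10.7% of the 28 KO and 19.8% of the 111 WT cells with both. Cells with 1 or both of Folr2 and Lyve1 held 45.7% of the Gas6 UMIs of KO macrophages while being 4.18% of them, and 49.2% of those of WT macrophages while being 12.2%. Axl was at 25.6 and 2.95 CPM in KO cells with both and with neither, and at 10.1 and 2.18 CPM in WT cells. Its log2 ratio was 2.75 (1.95 to 3.47) in KO and 1.81 (1.15 to 2.41) in WT cells, from 15 KO and 20 WT UMIs in cells with both. Within the low class II range it was 2.16 (0.57 to 3.45) in KO and 1.11 (0.16 to 1.98) in WT cells, from 4 and 8 UMIs.

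Marco was at 83.8 and 30.4 CPM in KO cells with both and with neither, and at 167 and 56.2 CPM in WT cells, with log2 ratios of 1.43 in KO and 1.55 in WT. Its direction was opposite to that over class II. Within the low class II range, 17 KO and 87 WT cells held both, and the log2 ratio was 2.06 (1.62 to 2.46) in KO and 1.83 (1.66 to 1.99) in WT cells. Few KO cells carried this. Unthinned, Marco was seen in 14.3% of the 28 KO cells with both and 13.1% of those with neither, and in 32.4% and 21.6% of WT cells. After thinning it was seen in 2 of the 28 KO cells with both. The intervals cover counting error and not the spread between cells. Timd4 was lower in cells with both, at -2.16 (-2.91 to -1.50) in KO and -0.45 (-0.64 to -0.27) in WT cells, and so was Mfge8, at -1.15 (-2.13 to -0.31) in KO and -1.18 (-1.57 to -0.82) in WT cells. Within the low class II range Timd4 was at -1.56 (-2.32 to -0.89) in KO and -0.40 (-0.60 to -0.20) in WT cells, and Mfge8 at -0.54 (-1.55 to 0.32) in KO and -1.11 (-1.53 to -0.71) in WT cells, where the KO interval spans 0. When cells with at least 3 UMIs of Folr2 and Lyve1 together stood for those with both, Timd4 was at -1.16 in KO and -0.10 in WT cells, and with status read after thinning to 5000 UMIs at -3.13 in KO and -0.83 in WT cells. Mfge8 was at -0.80 in KO and -0.90 in WT cells by the summed rule, and at -1.69 and -1.83 after thinning. Cd36 was at 783 and 220 CPM in KO cells with both and with neither, and at 292 and 220 CPM in WT cells. Class II moved with this status: Cd74 was at 2849 CPM in KO and 837 CPM in WT cells with both. Past 1.5-fold, 6 of the 10 genes were higher and 2 lower in KO cells with both, beside 23.7% and 6.84% of all genes at the floor. In WT cells 5 were higher and 1 lower, beside 11.1% and 1.75%. Of the 9 genes at the floor in KO, 5 were higher and 2 lower, and of the 9 in WT, 4 were higher and 1 lower. Axl and Stab1 in KO, and Gas6, Scarb1 and Stab1 in WT, reached it only through the cells with both.

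**Figure D3:**
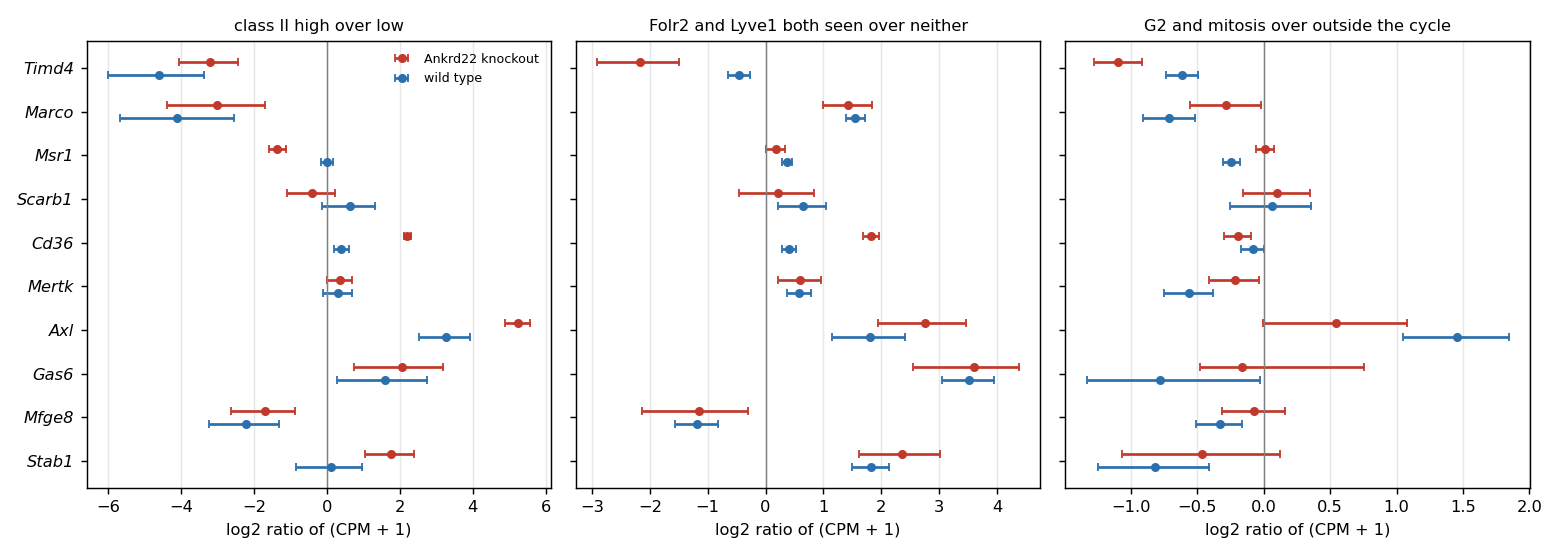
Log2 ratios of (CPM + 1) between ranges of cells within the Ankrd22 knockout (red) and the wild type library (blue), with 95% counting intervals, for high over low class II, for both over neither of Folr2 and Lyve1, and for G2 and mitosis over cells outside the cycle. Timd4, Marco and Mfge8 lie left of 0 and Axl right of 0 for class II, while Marco lies right of 0 for Folr2 and Lyve1 in both libraries.

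Timd4 levels were lower in cells in the cell cycle. By at least 8 of 20 genes of S phase or of G2 and mitosis, 528 KO and 154 WT cells were in S phase, and 133 KO and 229 WT cells in G2 or mitosis. Cycling cells were deeper, with medians of 30810 UMIs in KO and 22302 UMIs in WT cells in G2 and mitosis, and 15240.5 and 14087 UMIs outside the cycle. Outside the cycle, in S phase and in G2 and mitosis, Timd4 stood at 130, 83.9 and 60.3 CPM in KO cells, and 164, 112 and 107 CPM in WT cells. G2 and mitosis over outside the cycle, its log2 ratio was -1.10 (-1.28 to -0.92) in KO and -0.61 in WT cells. Cycling cells were not split by class II. Cd74 was at 361 CPM in KO and 704 CPM in WT cells in G2 and mitosis, and at 287 and 323 CPM outside the cycle. Gata6 was at 109 and 98.9 CPM in G2 and mitosis, and at 172 and 150 CPM outside it. Their part in the Timd4 result was not tested.

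Marco stood at 33.6, 18.2 and 27.4 CPM in KO cells, and 66.4, 51.2 and 40.1 CPM in WT cells over the same 3 states. Axl stood at 3.50, 3.93 and 5.57 CPM in KO cells, and 2.84, 7.81 and 9.52 CPM in WT cells, with a log2 ratio of 0.55 (-0.01 to 1.08) in KO and 1.45 (1.05 to 1.84) in WT cells for G2 and mitosis. Ccr2 was at 13.1 CPM in KO and 49.8 CPM in WT cells in G2 and mitosis, and at 19.5 and 7.12 CPM outside the cycle, and its part in the Axl result was not tested. In G2 and mitosis, 0 of the 10 genes were higher and 1 lower past 1.5-fold in KO cells, beside 17.4% and 4.28% of all genes at the floor. In WT cells 1 was higher and 4 lower, beside 15.2% and 3.65%, and of the 6 genes at the floor 0 were higher and 2 lower. In KO 7 genes were at the floor, with 0 higher and 1 lower. The lower genes in WT were Timd4, Marco (-0.71), Stab1 (-0.82, from 40 UMIs) and Gas6 (-0.78, from 4 UMIs). S phase over outside the cycle, the log2 ratio of Timd4 was -0.63 in KO and -0.55 in WT cells. That of Marco was -0.85 in KO and -0.37 in WT cells, and that of Axl 0.13 and 1.20.

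B cells that passed the sort give a measure of free RNA, since they should hold little of these transcripts, but they were few and shallower, with medians of 4094.5 UMIs in KO and 5497.5 UMIs in WT. After thinning, 26 KO and 35 WT B cells were left. A count of 0 among them allows, at 3 counts, up to 11.5% in KO and 8.57% in WT, and the exact binomial upper limits are 13.2% in KO and 10.0% in WT. Msr1 and Cd36 were each seen in 0 KO B cells and in 5.71% of WT B cells, which is 2 cells. Marco was seen in 3.85% of KO B cells, which is 1 cell, and Mfge8 in 1 WT B cell, with an exact upper limit of 14.9%. In macrophages, the shares with Timd4, Msr1 and Cd36 lay above the exact upper limits of the B cells in both libraries, and that with Mertk in WT alone. The shares with the other 6 genes, and with Mertk in KO, lay below them, so the B cells cannot show whether these exceed background. Over all UMIs of B cells, Axl stood at 0 CPM in KO and at 7.91 CPM, from 2 UMIs, in WT. That is above the Axl level of WT macrophages, and of the class II ranges only the middle and high ones had a higher Axl level than this.

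For each of the 10 genes, those with the most similar levels were found over 16 groups of cells, 7 of KO and 9 of WT, defined by class II, Folr2 and Lyve1, and cycle. Levels were centred within each library, and 2361 genes at 50 CPM or more were candidates. The groups share a library and the genes that define them, and so many candidates readily give high correlations. Timd4 ran most like the coagulation factor gene F5 (r = 0.96) and Marco most like Timd4 (r = 0.91). Msr1 ran with Bin1 (r = 0.97), Cd36 with the saposin precursor gene Psap (r = 0.98), Mertk with the transcription factor gene Mef2a (r = 0.95) and Mfge8 with the ubiquitin ligase gene Nedd4 (r = 0.94). Axl ran with Cd52 (r = 0.95), followed by H2-Eb1 and H2-Aa, which belong to the class II measure. Scarb1 ran with Twf1 (r = 0.92), Stab1 with Atp6v1a (r = 0.87) and Gas6 with Ap2m1 (r = 0.87). Gas6 had 35 UMIs in all KO macrophages, with 1 in S phase and 1 in G2 and mitosis. Its r therefore rests on few counts and on the added 1 CPM.

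Other genes of the pathway stood on both sides. For comparison, 1386 of the 8883 genes that reached 5 CPM in either library were past 1.5-fold, both sides together. This is not a like measure, since the lists below use a mean of 5 CPM and are counted by side. At 20 CPM in either library, 11.1% of all genes were higher and 3.95% lower. No list was tested against these shares. Of 23 further apoptotic cell receptors and bridges, 13 had a mean of 5 CPM or more, with 1 higher and 5 lower in KO past 1.5-fold (median log2 ratio -0.05). The higher one was Cd300a (0.65). Pros1, also of this list, was at 179 CPM in KO and 141 CPM in WT macrophages (0.34). Lower ones included the complement genes C1qa (-1.44), C1qc (-1.05) and C1qb (-0.80), whose product opsonises dying cells, and Thbs1 (-1.48), whose product bridges dying cells to Cd36. Of 18 scavenger receptors and lectins, 12 were measured, with 1 higher and 4 lower (median -0.09). Scarb2, the lysosomal relative of Scarb1 and Cd36, was at 174 CPM in KO and 97.0 CPM in WT macrophages (0.84), and the glucan receptor gene Clec7a at 53.5 CPM in KO and 97.3 CPM in WT macrophages (-0.85). Cd68 (0.26) and Cxcl16 (0.24) lay near the median gene.

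Of 18 genes of engulfment signalling, 17 were measured, with 1 higher and 0 lower (median 0.16). Elmo1 (0.60) and Dock1 (0.32), which form an exchange factor for Rac1, and Atg7 (0.34) and Wasf2 (0.32) had the largest ratios. Of 16 genes of lipid handling after uptake, 13 were measured, with 1 higher and 1 lower (median 0.13). Lpcat3, which remodels phospholipids, was at 55.0 CPM in KO and 26.8 CPM in WT macrophages (1.01), the apolipoprotein gene Apoe at a log2 ratio of -0.86, the lysosomal lipase gene Lipa at 0.52 and the cholesterol exporter gene Abcg1 at 0.46. Of 11 genes of restraint and receptor shedding, 8 were measured, with 1 higher and 0 lower (median 0.03). Adam10, a protease that sheds surface receptors, was at 0.62, the cytokine signalling inhibitor gene Socs3 at -0.57, the inhibitory receptor gene Pirb at 0.37 and Adam17, the protease that sheds Mertk, at -0.24. Under TMM and under the median of ratios the medians of all 5 lists lay below 0. Past 1.5-fold on the higher side were 1 gene of lipid handling and 0 genes of the other 4 lists, so that Cd300a, Scarb2, Elmo1 and Adam10 were not. On the lower side there were then 5 apoptotic cell receptors and bridges, 5 scavenger receptors and lectins, 0 engulfment genes, 2 genes of lipid handling and 1 of restraint and shedding. Of all genes at 20 CPM, 560 of 5063 were past 1.5-fold on either side under TMM and 563 of 5064 under the median of ratios. That floor is higher than the one of the lists, and both sides are counted together.

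**Figure D4:**
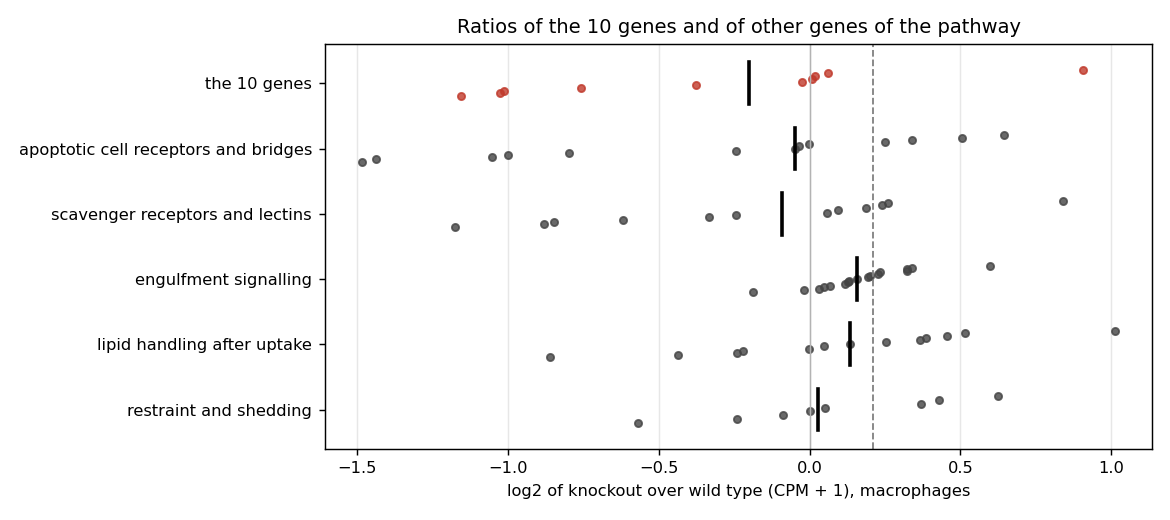
Log2 ratios of knockout over wild type in macrophages for the 10 genes (red) and for other genes of the pathway at a mean of 5 CPM or more (grey), 1 point per gene, with list medians as black bars and the median of all genes at the floor, 0.21, as a dashed line. The 10 genes run from -1.16 to 0.91.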

How the data were processed

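Single-cell RNA was measured in 2 libraries of sorted F4/80+ peritoneal lavage cells, made with 10x Genomics 3' v3 reagents per the labels. The deposited values are UMI counts per gene and called barcode; per the file headers they come from Cell Ranger 6.1.2. The submitters' processing notes name bcl2fastq, Seurat 4.1.0 and mm9, whereas all 55450 feature identifiers were in GENCODE mouse release 21 (GRCm38), used here for positions. The genes and lists were chosen with earlier results of these data known.

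Filters kept barcodes with at least 500 genes and at most 10% mitochondrial UMIs, 6360 in KO and 6259 in WT. Scrublet's own threshold called 1 barcode in each library, so the 324 KO and 313 WT barcodes with the highest scores were removed, at 0.8% per 1000 barcodes. B cells, 30 in KO and 36 in WT, held at least 4 of 8 B cell markers. Levels have exact Poisson, shares exact binomial (Clopper-Pearson) and ratios exact conditional binomial intervals. For shares, each cell was thinned to 2000 UMIs, which left out 32 KO and 57 WT macrophages. UMIs come from 3' ends, so levels of different genes were not compared. Named genes of each list were the 4 with the largest absolute ratio at a mean of 20 CPM or more, and Cd300a and Pros1 were named besides. Ratios and intervals were tested on simulated data. TMM factors came from edgeR 4.0.16 in R 4.3.3, the rest from Python 3.11.15 with numpy 2.4.6, scipy 1.17.1 and scanpy 1.11.5. The motif cores, the comparison of cells with and without Timd4 or Marco UMIs, and the status comparison within low class II were chosen after seeing the data.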

Additional observations from a re-analysis of the deposited data

Results flagged for a closer look

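The sign of the difference between high and low class II cells was opposite in KO and WT for 2 of the 10 genes. Msr1 was at a log2 ratio of -1.36 in KO cells, from 154 UMIs in the high range, and at 0.00264 (-0.17 to 0.17) in WT cells, from 298 UMIs. Scarb1 was at -0.41 (-1.10 to 0.22) in KO and 0.63 (-0.14 to 1.32) in WT cells, from 19 KO and 16 WT UMIs, and both of its intervals span 0. The sizes depend on the cuts, and for Msr1 so does the difference in sign. With cuts at 10 and 50, Msr1 was at -0.65 in KO and 0.30 in WT cells, and Scarb1 at -0.15 and 0.40. With cuts at 50 and 200, Msr1 was at -2.12 in KO and -0.20 in WT cells, so its sign was then the same in both. That WT value rests on 49 Msr1 UMIs in the 8 cells of the high range. Scarb1 then had 6 KO and 5 WT UMIs in the high range. Neither difference between the libraries was tested.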

How the results depend on the processing

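The count of the 10 genes past 1.5-fold on the higher side was 1 under 10 other settings: TMM, median of ratios, 0.1 or 5 CPM added, equal weight per cell, no barcode filter, a stricter filter, no doublet removal, low class II cells outside the cycle without both of Folr2 and Lyve1, and, chosen after seeing the data, leaving out shared barcode sequences. The count on the lower side was 3 with 5 CPM added, where Gas6 stood at -0.39, 5 under TMM and the median of ratios, and 4 under the other settings. Of all genes, 770 of 5115 were past 1.5-fold at the floor of 20 CPM, 1386 of 8883 at a floor of 5 CPM and 2185 of 25522 with no floor. At 20 CPM the count was 560 of 5063 under TMM and 563 of 5064 under the median of ratios. Unthinned, the share of macrophages with Cd36 was 1.45 percentage points higher in KO, and thinned the difference was -1.77. Thinning is random, and this was a separate draw from the one that gave 33.0% in KO and 35.2% in WT above. With class II cut at 50 and 200, which leaves 31 KO and 8 WT cells in the high range, Gas6 was at -0.43 in KO and -1.54 in WT cells, high over low, against 2.07 in KO and 1.60 in WT cells at the cuts used. The high ranges then held 0 KO and 0 WT Gas6 UMIs, so these values are set by the added 1 CPM. The values of Timd4, Mfge8 and Msr1 under other class II cuts, and of Marco with cuts at 10 and 50, are given with the results. With cuts at 50 and 200 the high range held 2 KO and 1 WT Marco UMIs, 39 KO and 5 WT Axl UMIs, and 425 KO and 48 WT Cd36 UMIs. With 6 cycle genes required, Marco in WT S phase was at 0.24, against -0.37, and in WT G2 and mitosis at -0.51, against -0.71. With equal weight per cell, Msr1 and Mertk lay just below 0, at -0.03 and -0.05, and Axl was at -0.11 in low class II cells without both of Folr2 and Lyve1. No paired analysis was possible because each genotype has 1 library. Depth limits Gas6 throughout and most genes in the high class II range.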

Other observations

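Marco was higher in cells that held Timd4. In the low class II range, 1500 KO and 1750 WT cells had at least 3 Timd4 UMIs, and 2892 KO and 2582 WT cells had 0. Marco was at 57.1 CPM in KO cells with Timd4 and 18.5 CPM in those without (log2 ratio 1.57, 1.46 to 1.69), and at 108 and 41.2 CPM in WT cells (log2 ratio 1.37, 1.28 to 1.46). The median depth was 16735.5 UMIs in KO cells with Timd4 and 14652 in those without, and 15332 and 13945.5 UMIs in WT cells, and its part was not tested. Mfge8 showed log2 ratios of 0.00 in KO and 0.04 in WT cells, and both intervals span 0.

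Stab1 was higher in cells that held Marco. In 246 KO cells with at least 3 Marco UMIs it was at 12.6 CPM, against 5.28 CPM in 4418 KO cells with 0 (log2 ratio 1.12, 0.73 to 1.49). In 457 WT cells with Marco the log2 ratio was 1.05 (0.83 to 1.26). Cells with Marco were deeper, with medians of 17669.5 and 14981.5 UMIs in KO cells with and without it and 17425 and 13514 UMIs in WT cells. They also had more Timd4 (log2 ratio 0.98 in KO and 0.73 in WT), Cd36 (0.54 and 0.40), Mertk (0.48 and 0.33) and Msr1 (0.29 and 0.30), and the part of depth in these was not tested.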
